A study of Mus musculus with 98 samples.

Results

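The measurements described here are the transcript levels of 9 genes of fat cell formation and fatty acid uptake, Lpl, Cd36, Pparg, Cebpa, Fabp4, Fabp5, Car3, Adipoq and Plin2, in the nonepithelial stroma of the mouse thymus. The genes were chosen by name, with earlier results of these data known, and all 9 were present in each count table: 9 of 22231 genes in the single-cell age series, 9 of 20760 in the newborn single-cell data and 9 of 39179 gene identifiers in the bulk RNA-seq. The age series held wild-type C57BL/6 thymic stroma at the embryonic days E12.5 (1 library), E13.5 (1 library) and E16.5 (2 libraries), at birth (P0, 2 libraries) and at 4 weeks (W4, 2 libraries). The newborn data held 3 libraries of Tbx1+/- Crkl+/- mice (HET), a model of 22q11 deletion syndrome with 1 copy each of the transcription factor gene Tbx1 and the adaptor gene Crkl, and 3 libraries of wild-type littermates (WT). Those newborn cells were sorted as Ter119-CD45-, so that thymic epithelial cells (TEC) were kept, and were fixed with RNAprotect. Cells of the age series were sorted as Ter119-CD45-EpCAM-, and the E12.5 and E13.5 cells were pooled across litters. The bulk libraries were ultra-low-input RNA-seq of live CD45- populations of wild-type mice at P0 and W4, sorted as CD31+ (endothelium), Ly51+gp38- (pericytes and smooth muscle), gp38+CD26+ (mostly capsular fibroblasts) and gp38+CD26- (mostly medullary fibroblasts). The submitters' annotation divided the age series into 19 subtypes, among them 11 fibroblast subtypes (capsular CapFb1a to CapFb4, medullary MedFb1a to MedFb2b) and arterial (EnA), capillary (EnC) and venous or lymphatic (EnVL) endothelium.

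Lipoprotein lipase, the product of Lpl, releases fatty acids from the triglycerides of circulating lipoproteins at the capillary wall, to which it is carried from the cells that make it. CD36 takes up the fatty acids, and the binding proteins FABP4 and FABP5 carry them inside the cell. In fat cell precursors the transcription factors PPARG and C/EBPA together switch on the adipocyte genes, among them Adipoq for the hormone adiponectin, Car3 for carbonic anhydrase 3, and Fabp4 itself. PLIN2 coats lipid droplets in most cell types. The adult thymus is gradually replaced by fat, and PPARG, CD36 and FABP4 are also known products of capillary endothelium outside fat tissue.

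Because members of this group share regulators, the promoter stretches of 3 of them are shown, each 300 bases from 250 before the start given for the gene in a RefSeq promoter table to 50 after it, on build GRCm38.p6. Adipoq marks the fat cell, Cd36 the uptake of fatty acids, and the Pparg stretch is the start of its downstream transcript. The Cd36 stretch likewise lies inside the annotated gene, whose outermost start is further upstream. Capitals mark every match, on either strand, to CCAAT, to TTGCNNAA (a core of the C/EBP element), to TATAAA or to AGGTCA (a half-site of nuclear receptors such as PPARG).
Adipoq, chr16:23146286-23146585, + strand: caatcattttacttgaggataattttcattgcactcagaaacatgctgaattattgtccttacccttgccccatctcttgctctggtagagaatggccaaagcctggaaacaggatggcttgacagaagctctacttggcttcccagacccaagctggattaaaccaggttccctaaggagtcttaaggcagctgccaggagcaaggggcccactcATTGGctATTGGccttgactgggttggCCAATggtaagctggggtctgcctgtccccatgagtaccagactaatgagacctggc
Cd36, chr5:17835847-17836146, - strand: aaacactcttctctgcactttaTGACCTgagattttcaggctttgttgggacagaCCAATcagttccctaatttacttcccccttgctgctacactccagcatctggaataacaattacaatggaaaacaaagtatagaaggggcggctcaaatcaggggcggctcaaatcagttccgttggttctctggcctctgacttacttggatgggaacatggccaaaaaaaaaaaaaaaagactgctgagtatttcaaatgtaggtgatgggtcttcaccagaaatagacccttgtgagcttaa
Pparg, chr6:115421816-115422115, + strand: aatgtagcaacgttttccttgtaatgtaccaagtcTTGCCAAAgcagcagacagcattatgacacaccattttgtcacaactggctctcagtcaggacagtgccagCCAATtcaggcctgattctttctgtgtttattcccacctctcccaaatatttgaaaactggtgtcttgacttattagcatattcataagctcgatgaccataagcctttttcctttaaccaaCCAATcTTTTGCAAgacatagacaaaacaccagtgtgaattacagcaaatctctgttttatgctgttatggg
The Adipoq stretch held 3 CCAAT matches, at -34, -27 and -7 from the start. The Cd36 stretch held 1 AGGTCA match at -228 and 1 CCAAT match at -195. The Pparg stretch held TTGCNNAA at -215 and -16 and CCAAT at -144 and -22. Of 32851 mouse promoter stretches of this length, 37.4% held CCAAT, 16.3% AGGTCA, 13.6% TATAAA and 10.8% TTGCNNAA, and a match is a description of the letters only. In mm10 (GENCODE vM21) the genes lie on chromosome 8 at 68880491 to 68907448 (Lpl), chromosome 5 at 17781690 to 17888801 (Cd36), chromosome 6 at 115360951 to 115490399 (Pparg), chromosome 7 at 35119293 to 35121928 (Cebpa), chromosome 16 at 23146536 to 23158028 (Adipoq) and chromosome 4 at 86648386 to 86670060 (Plin2). Fabp4 (10204088 to 10208576), Fabp5 (10012548 to 10016607) and Car3 (14863512 to 14872523) lie on chromosome 3.

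The age series held 36208 cells, with a median of 10005 to 14031 unique molecular identifiers (UMIs) per cell in its 8 libraries. The newborn data were shallower, with 21451 cells and a median of 2391 to 2551 UMIs in the HET libraries and 2577 to 4686 in the WT libraries. Levels are given as counts per 1e+06 UMIs (CPM) over the summed cells of a type in a library. The labels were checked against defining markers. In the age series a summed list of 4 endothelial genes lay between 1747 and 3403 CPM in the pooled endothelium and between 7.33 and 18.1 CPM in the pooled fibroblasts, and a list of 4 fibroblast genes lay between 1961 and 30828 CPM in the fibroblasts and between 28.8 and 1990 CPM in the endothelium. In the newborn fibroblasts the endothelial list lay between 24.1 and 78.5 CPM. Markers of each type were thus counted in the other as well. Libraries of a pair shared at most 14 cell barcodes in the age series (0.275%) and 5 in the newborn data (0.211%). The E16.5, P0 and W4 cells came from 2 thymi per age and the newborn cells from 3 mice of each genotype, but the labels did not say which animal each library held. For the bulk libraries no animal was named, so the spread between them, which is what each p-value measures, may be technical. The numbers in their labels recur at a fixed step from population to population within an age. Libraries of the same replicate number may thus share a source, and the tests between populations did not pair them. Subtypes were defined by the submitters from the same counts, so differences between subtypes are described and not tested.

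**Figure D1:**
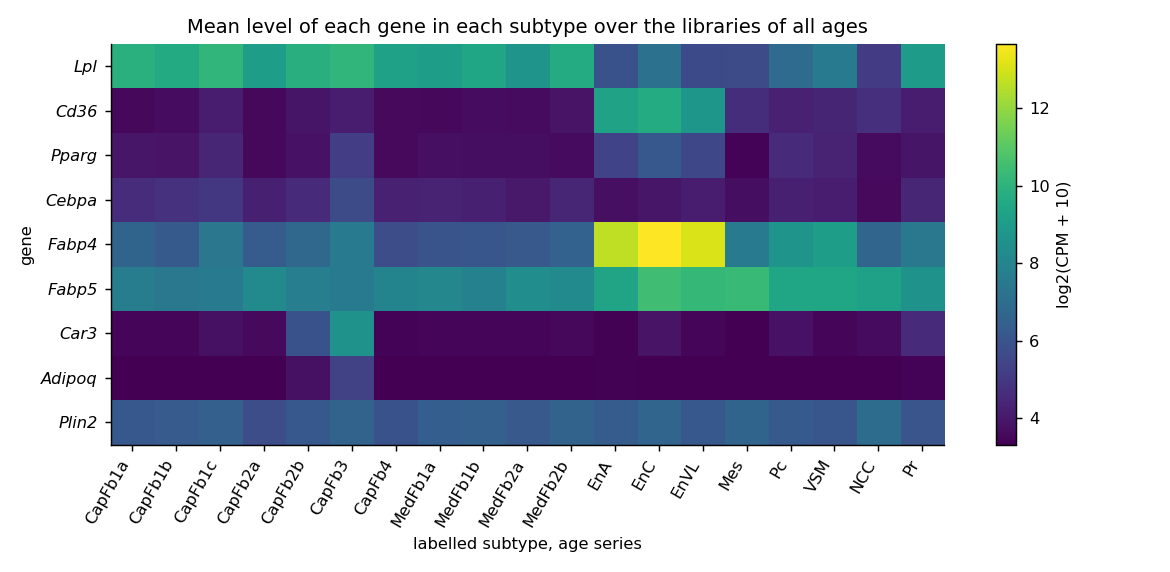
Level of each of the 9 genes (rows) in each of the 19 annotated subtypes (columns) of the age series, as log2(mean CPM + 10). The mean was taken over the libraries of all ages before the log. All rows share the same colour scale, and levels are compared along a row only. Lpl was high across the fibroblasts, Cd36, Fabp4 and Pparg were high in the 3 endothelial subtypes, and Car3 and Adipoq were high in CapFb3.

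In the age series, Lpl was higher at W4 than at P0 in all 11 fibroblast subtypes and Fabp5 was lower in all 11. In capillary endothelium Lpl, Cd36, Fabp4 and Fabp5 were all higher at W4. In 14 subtypes with enough cells, 82 member-by-subtype tests in fibroblasts and 21 in endothelium passed the filter on low counts, and 57 of these differed between W4 and P0 at an adjusted p below 0.05 (34 higher, 23 lower), where 29.1% of the tests over all genes in these subtypes did. Between E16.5 and P0, 40 of them did (16 higher, 24 lower), where 12.6% of the tests over all genes did. Over all 5 ages 89 did, where 54.8% of the tests over all genes did. Over all genes the share higher at W4 was 16.4% in fibroblast and 7.15% in endothelial subtypes, and the share lower 15.8% and 8.10%. The shares higher at P0 than at E16.5 were 6.58% and 7.03%, and those lower 5.46% and 8.17%. The P0 libraries serve both comparisons. Of the 57 differences, 38 held whichever library was left out, and of the 40, 30 did.

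Lpl levels in fibroblasts went up at each age after E13.5. In the pooled fibroblasts its level was 8.14 CPM at E12.5, 7.96 at E13.5, 486 and 471 at E16.5, 634 and 727 at P0, and 1699 and 1720 at W4. No library overlapped with one of another age from E16.5 on, and both early libraries lay far below the rest. The mix of subtypes also differed, with 744 CapFb1a, 177 CapFb1b and 206 MedFb2a cells at E13.5 and 551, 1567 and 1191 at E16.5. Within the 10 subtypes with at least 5 cells at E13.5, Lpl lay between 3.35 and 15.2 CPM at E13.5 and between 96.9 and 1169 CPM at E16.5. After cells were thinned to 2000 UMIs, leaving out shallower ones (6 of 1089 fibroblasts at E12.5 and 2 of 3109 at E13.5), the share of fibroblasts with an Lpl UMI was 2.03% at E12.5 (exact 95% interval 1.28% to 3.06%), 1.54% at E13.5 (1.14% to 2.04%), 46.8% at E16.5, 61.04% at P0 and 87.8% at W4 (8.82%, 6.53%, 84.6%, 90.5% and 98.8% before thinning). The intervals cover counting error in the 1 library of each early age only. The order of the subtypes changed with age. CapFb1c had the highest level at E16.5 (1169 and 1104 CPM) and at P0 (1285 and 1482 CPM), whereas at W4 CapFb3 had the highest level (2491 and 2411 CPM), above every library of the next subtype, CapFb1b.

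The rise in Lpl from P0 to W4 differed in size among fibroblast subtypes. In CapFb2a it went from 191.1 and 260 CPM to 1896 and 1585 CPM, a log2 change of 2.97 (SE 0.18, adjusted p = 2.2e-06, edgeR). In MedFb1b it went from 476 and 538 to 1826 and 1832 CPM, a log2 change of 1.82 (SE 0.08, adjusted p = 2.6e-10), and in CapFb4 from 723 and 761 to 1211 and 1057 CPM, a log2 change of 0.70 (SE 0.08, adjusted p = 2.4e-07). The W4 libraries lay above the P0 libraries in each of these subtypes. CapFb1c, where Lpl was already high at birth, had the smallest rise, at 0.40 (SE 0.10, adjusted p = 0.0075), and that call was lost without W4 replicate 2 (0.29, adjusted p = 0.083). The earlier step, from E16.5 to P0, was passed in 8 fibroblast subtypes, most steeply among those that held in MedFb1a (228 and 240 to 476 and 522 CPM, log2 change 0.97, SE 0.09, adjusted p = 8.7e-07). In the capsular CapFb3 the level did not pass the test at this step (1045 and 882 CPM at E16.5, 740 and 1106 at P0).

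Endothelial Lpl was lower than fibroblast Lpl in every library and also rose, in capillaries. EnC held 26.5 and 49.3 CPM at E16.5, 54.7 and 117 at P0, and 355 and 461 at W4, a log2 change of 2.17 from P0 to W4 (SE 0.36, adjusted p = 0.0036, and 2.88 without P0 replicate 2). EnVL held 73.7 and 55 CPM at P0 and 29 and 77.2 at W4, which overlap, and EnA 134.1 and 19.6 against 85.5 and 138.9, which overlap too. The log2 changes were -0.38 (SE 0.56) in EnVL and 0.47 (SE 0.68) in EnA. The summed fibroblast markers in the pooled endothelium were 1990 and 1551 CPM at P0 and 837 and 1162 CPM at W4, while Lpl in the fibroblasts themselves rose. The part of free fibroblast RNA in the endothelial Lpl was not tested.

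Cd36, the fatty acid translocase, was an endothelial transcript at every age and increased throughout. In the pooled endothelium its level was 21.8 CPM at E12.5, 30.4 at E13.5, 476 and 374 at E16.5, 683 and 778 at P0, and 1468 and 1508 at W4, and no age overlapped with the next. In the pooled fibroblasts it stayed between 0.0679 and 7.11 CPM. In EnC, Cd36 went from 501 and 403 CPM at E16.5 to 893 and 914 at P0 (log2 change 0.86, SE 0.12, adjusted p = 0.0024) and to 1957 and 1819 at W4 (log2 change 1.0, SE 0.12, adjusted p = 0.00062). These steps in EnC held whichever library was left out. EnVL also passed from E16.5 to P0 (0.57, adjusted p = 0.046), but only 3 of 8 fits with a library left out kept that call. It was also lost with DESeq2, with its size factors and with at least 50 cells. EnA did not pass at that step. EnA and EnVL were also higher at W4, at 1.18 (SE 0.25, adjusted p = 0.0067) and 0.74 (SE 0.17, adjusted p = 0.015) on the log2 scale. Without P0 replicate 1 both calls were lost (0.96, adjusted p = 0.093, and 0.54, adjusted p = 0.11), and that in EnVL was lost without W4 replicate 2 as well (0.55, adjusted p = 0.10). At W4 EnC lay above both other endothelial subtypes in every library, and 81.8% of thinned endothelial cells had a Cd36 UMI against 1.25% of thinned fibroblasts (91.5% and 7.25% before thinning).

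Small amounts of Cd36 were counted in fibroblasts and rose in a few subtypes. MedFb1b held 1.65 and 1.91 CPM at P0 and 8.41 and 6.13 at W4 (log2 change 1.96, SE 0.40, adjusted p = 0.00097), and MedFb2a 0.284 and 1.54 CPM against 6.48 and 6.06 (log2 change 2.49, SE 0.53, adjusted p = 0.002, and 4.33 without P0 replicate 2). The W4 libraries lay above the P0 libraries in both. Endothelial markers in the pooled fibroblasts also went from 9.58 and 7.33 CPM at P0 to 15.9 and 18.1 at W4, while Cd36 in the endothelium itself rose, and the part of free endothelial RNA in these low fibroblast levels was not tested.

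**Figure D2:**
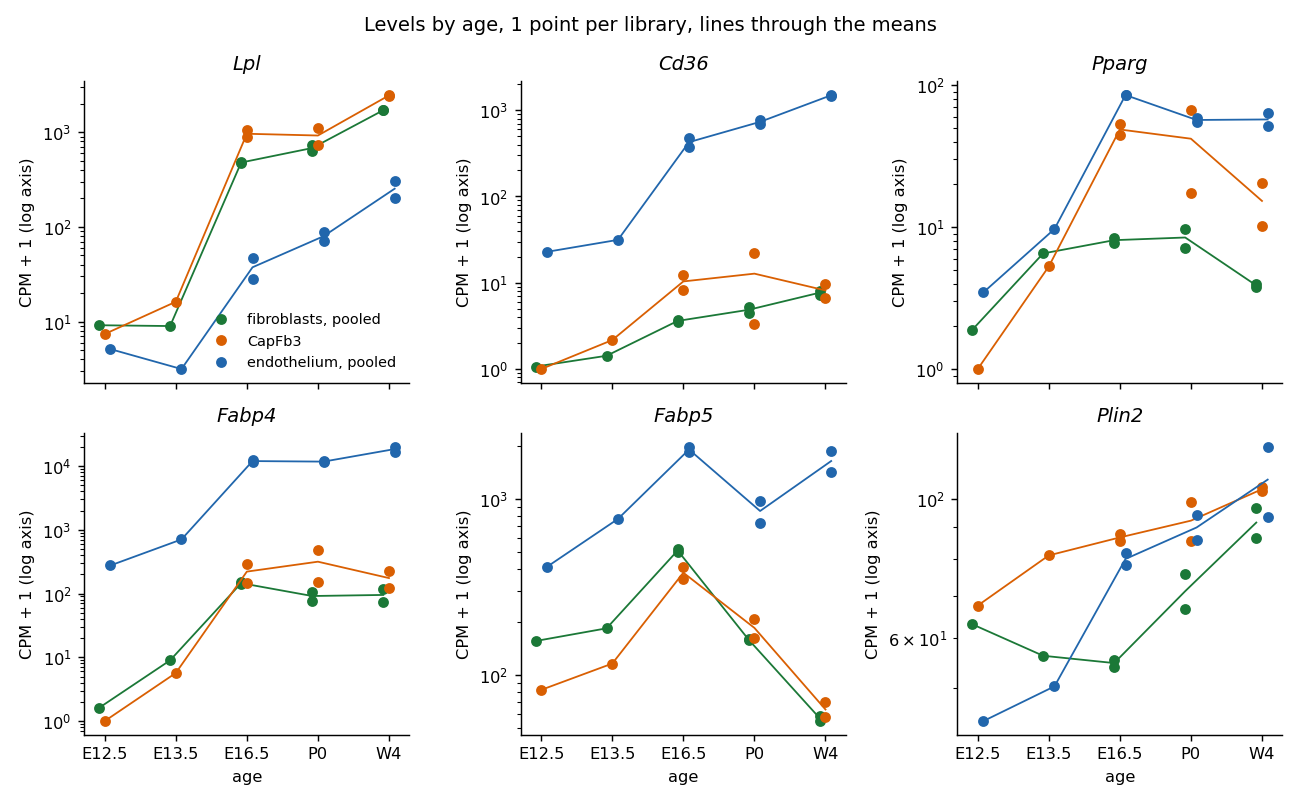
Level of Lpl, Cd36, Pparg, Fabp4, Fabp5 and Plin2 at the 5 ages (horizontal axis) in pooled fibroblasts, CapFb3 and pooled endothelium, as CPM + 1 on a log axis. Each point is 1 library and lines join the means. Fibroblast Lpl climbed from 8.14 to 1720 CPM, while fibroblast Fabp5 peaked at E16.5 (515 and 498 CPM) and ended at 57.7 and 53.6 CPM.

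The master regulator of fat cells, Pparg, was also highest in endothelium. The pooled endothelium held 2.47 CPM at E12.5, 8.70 at E13.5, 84.7 and 83.9 at E16.5, 53.8 and 58.1 at P0, and 50.3 and 62.6 at W4, so that the E16.5 libraries lay above all others and P0 and W4 overlapped. Subtypes parted after E16.5. Pparg in EnVL went from 82.6 and 92.3 CPM at E16.5 to 29.3 and 25.3 at P0, a log2 change of -1.70 (SE 0.20, adjusted p = 0.00037). EnVL combines venous and lymphatic cells, and the summed lymphatic markers in the pooled endothelium were 36.3 and 37.1 CPM at E16.5, 106 and 100.8 at P0, and 21.7 and 19.1 at W4. Their part in the EnVL values of Pparg, Cd36, Fabp4 and Fabp5 was not tested. EnC held 86.9 and 84.2 CPM at E16.5, 77.5 and 82 at P0 and 72.9 and 77.3 at W4. The pooled fibroblasts stayed between 0.882 and 8.75 CPM.

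Among fibroblasts, CapFb3 stood out for Pparg, with 51.9 and 43.6 CPM at E16.5, 16.3 and 65.7 at P0, and 19.4 and 9.25 at W4. A few cells carried much of this at E16.5, where 2 CapFb3 cells of replicate 1 held 12 and 19 of 64 Pparg UMIs and 2 of replicate 2 held 7 and 29 of 65. These are among the cells of at least 5 Adipoq UMIs described with Car3, and outside such cells CapFb3 held 26.7 CPM of Pparg over E16.5 and P0. The P0 libraries were far apart, and the W4 against P0 difference did not pass the test (-1.51, adjusted p = 0.13). In CapFb2b Pparg was 4.79 and 12.8 CPM at P0 and 0.399 and 0.76 at W4, a log2 change of -3.62 (SE 0.71, adjusted p = 0.0024). That call held whichever library was left out, with values from -4.22 to -2.79, the latter without P0 replicate 2. Pparg passed the test as lower at W4 in 6 of 9 fibroblast subtypes tested, and in 4 of these the call was lost when 1 library was left out. In MedFb2a it held at 3.41 and 3.49 CPM at P0 against 1.04 and 0.699 at W4 (-1.98, SE 0.50, adjusted p = 0.0063), but not with DESeq2.

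Cebpa, its partner, was highest in a fibroblast subtype. CapFb3 held 5.47 CPM at E12.5, 10.5 at E13.5, 47.9 and 35.6 at E16.5, 42.1 and 81.5 at P0, and 54.8 and 62.4 at W4, and from E16.5 on each of its libraries lay above every library of the next subtype. The pooled fibroblasts went from 3.87 to 20.2 and 22.2 CPM, and the pooled endothelium from 0 to 14 and 12.52 CPM. From P0 to W4 Cebpa rose in MedFb2a (4.83 and 5.17 to 12.2 and 13.51 CPM, log2 change 1.34, SE 0.25, adjusted p = 0.00074) and MedFb1b (9.17 and 6.22 to 14.4 and 15 CPM, log2 change 0.95, SE 0.22, adjusted p = 0.0027). The latter was lost with DESeq2. CapFb4 also passed, and that call was lost when 1 library was left out. In the bulk populations Cebpa was low and the libraries of the populations overlapped: its mean was 4.88 and 3.96 CPM in CD31+ cells at P0 and W4 (SD 5.28 and 4.30, n = 6 each), 3.41 and 2.70 CPM in gp38+CD26+ cells (SD 2.41 and 2.81, n = 6 and 5) and 3.34 and 5.03 CPM in gp38+CD26- cells (SD 3.17 and 4.39, n = 6 each). In the age series CapFb3 was thus the fibroblast subtype with the highest level of both regulators. At E16.5 and P0 a part of this lay in the cells of at least 5 Adipoq UMIs described with Car3. Outside such cells CapFb3 held 43.1 CPM of Cebpa and 26.7 CPM of Pparg over these 2 ages.

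Fabp4, the adipocyte fatty acid-binding protein, followed the endothelium. Its level in the pooled endothelium was 275 CPM at E12.5, 705 at E13.5, 12538 and 11374 at E16.5, 11596 and 11854 at P0, and 16853 and 20038 at W4. The W4 libraries lay above all others, and E16.5 and P0 overlapped. In EnC Fabp4 went from 15056 and 14490 CPM at P0 to 23192 and 24172 at W4 (log2 change 0.62, SE 0.07, adjusted p = 0.00053), and in EnVL from 8546 and 8509 to 11483 and 15357 (log2 change 0.61, SE 0.11, adjusted p = 0.003). EnA passed as well (0.87), but not whichever library was left out. Mural cells carried lower levels, with 1025 and 1152 CPM in vascular smooth muscle and 1020 and 1137 CPM in pericytes at W4.

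In the pooled fibroblasts Fabp4 was 0.611 CPM at E12.5, 7.96 at E13.5, 140 and 149.1 at E16.5, 75.5 and 105 at P0, and 71.5 and 117 at W4. The E16.5 libraries lay above the rest. From E16.5 to P0 Fabp4 was lower in 7 of 11 fibroblast subtypes, among them MedFb1b, from 92.6 and 114 CPM to 36.7 and 34.4 (log2 change -1.68, SE 0.14, adjusted p = 2.7e-06). Of these calls, those in CapFb1a and CapFb2a were lost without either E16.5 library, and those in CapFb1a and CapFb4 with DESeq2. EnA (-0.82) and EnVL (-0.47) were also lower at P0, and neither call held whichever library was left out. From P0 to W4 it returned in MedFb1b to 96.1 and 70.2 CPM (log2 change 1.19, SE 0.15, adjusted p = 1.2e-05), whereas in CapFb1c it went from 177 and 271 to 59.4 and 123 CPM (log2 change -1.28, SE 0.24, adjusted p = 0.00074, and -1.95 without W4 replicate 2). The CapFb1c call was lost with DESeq2. At every age Fabp4 in fibroblasts was a small part of that in endothelium, as the endothelial markers were, and how much of it was free RNA was not tested.

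Fabp5, which binds the same fatty acids and is made by many cell types, was lower at W4 than at P0 in fibroblasts and higher in capillary and venous or lymphatic endothelium. In the pooled fibroblasts it was 154 CPM at E12.5, 183 at E13.5, 515 and 498 at E16.5, 156.2 and 157.9 at P0, and 57.7 and 53.6 at W4. The E16.5 libraries were the highest and the W4 libraries the lowest, with no overlap between neighbouring ages. From E16.5 to P0 Fabp5 was lower in 13 of 14 subtypes tested, including all 3 endothelial ones, and every one of these calls held whichever library was left out. The largest fall was in CapFb1b, from 403 and 398 to 90.8 and 80.5 CPM (log2 change -2.30, SE 0.08, adjusted p = 2.5e-08). In CapFb3, the exception, the change was -1.03 (SE 0.18, adjusted p = 0.0504), and it passed at -1.07 (adjusted p = 0.023) without the cells of at least 5 Adipoq UMIs described with Car3.

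From P0 to W4 Fabp5 fell further in all 11 fibroblast subtypes. The log2 change ranged from -2.30 in CapFb4 (133.5 and 126 to 30 and 20.9 CPM, SE 0.15, adjusted p = 9.9e-12) to -0.96 in CapFb1b (90.8 and 80.5 to 48.2 and 41.8 CPM, SE 0.10, adjusted p = 8.7e-06). In endothelium Fabp5 recovered instead, in EnC from 1180 and 806 to 1814 and 2145 CPM (log2 change 0.94, SE 0.16, adjusted p = 0.0042) and in EnVL, over a step at which the lymphatic markers were lower at W4, from 822 and 639 to 1339 and 1979 CPM (log2 change 1.14, SE 0.18, adjusted p = 0.0013). EnA held 410 and 540 CPM at P0 and 351 and 498 at W4, which overlap. All 13 calls held whichever library was left out. Thinned to equal depth, 50.8% of fibroblasts had a Fabp5 UMI at E16.5, 22.0% at P0 and 10.7% at W4 (88.5%, 62.8% and 43.5% before thinning), against 85.9%, 54.05% and 71.4% of endothelial cells (98.5%, 78.7% and 83.8% before thinning).

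That difference between compartments was tested directly, as the change in endothelium minus the change in fibroblasts, over 14851 genes. From P0 to W4, 4 of the 9 members passed, where 11.3% of all genes did. For Fabp5 the difference was 2.36 on the log2 scale (SE 0.19, adjusted p = 0.00012) and held whichever library was left out. For Car3 it was 5.46 (SE 0.58, adjusted p = 0.00053, and 4.72 to 4.78 without W4 replicate 2 or P0 replicate 2), at endothelial levels of 1.70 and 8.34 CPM at P0 and 2.17 and 6.95 CPM at W4 and fibroblast levels of 10.14 and 86.7 CPM at P0 and 0.699 and 1.13 CPM at W4. Nearly all fibroblast Car3 of P0 was in CapFb3 (3334 UMIs) and CapFb2b (854 UMIs), of which 2329 and 676 were in the 6 and 1 cells with at least 5 Adipoq UMIs. Without such cells the Car3 difference was 3.72 (adjusted p = 0.0011), and Adipoq had too few counts to be tested. Cells with fewer Adipoq UMIs that held Car3 stayed in this fit. Pparg (1.31, SE 0.21, adjusted p = 0.0045) lost the call without W4 replicate 2 (1.01, adjusted p = 0.060), and Adipoq lost it without either P0 library or either W4 library. Lpl (0.25, adjusted p = 0.61), Cd36 (0.15, adjusted p = 0.54), Fabp4 (0.53, adjusted p = 0.069), Cebpa (1.0, adjusted p = 0.062) and Plin2 (-0.20, adjusted p = 0.34) did not pass. From E16.5 to P0, Fabp4 (0.60, adjusted p = 0.046) and Pparg (-0.72, adjusted p = 0.031) passed, where 10.9% of all genes did, and neither held whichever library was left out. The call for Fabp4 was lost without P0 replicate 1 (0.32), P0 replicate 2 (0.84), W4 replicate 1 or W4 replicate 2 (0.53 each), and that for Pparg without E16.5 replicate 2 (-0.63) or P0 replicate 2 (-0.50).

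Car3 and Adipoq were found together in CapFb3 of the age series. Car3 in CapFb3 was 0 CPM at E12.5, 6.62 at E13.5, 918 and 828 at E16.5, 88.5 and 1258 at P0, and 4.84 and 0.597 at W4. Adipoq in CapFb3 was 0 and 0.779 CPM at the early ages, 70.6 and 34.9 at E16.5, 6.87 and 120 at P0, and 1.61 and 0 at W4. The P0 libraries differed more than 10 times from each other in both genes, and every W4 library lay below every E16.5 and P0 library. The W4 against P0 change in Car3 was -8.38 (SE 1.5, adjusted p = 0.0065) and was lost without W4 replicate 2 (-7.01, adjusted p = 0.079). It ran from -9.89 without W4 replicate 1 to -5.45 without P0 replicate 2. That in Adipoq was -6.84 (SE 1.88, adjusted p = 0.036) and was lost without E16.5 replicate 1, E16.5 replicate 2, W4 replicate 1 or W4 replicate 2 (adjusted p = 0.079, 0.091, 0.10 and 0.24). It ran from -10.16 without W4 replicate 1 through -5.11 without W4 replicate 2 to -3.66 without P0 replicate 2. CapFb2b was next, with Car3 at 14.6 and 302 CPM at P0 and 0.399 and 2.53 CPM at W4, in which P0 replicate 2 again stood apart. Without that library the CapFb2b change in Car3 went from -6.38 (adjusted p = 0.019) to -2.98 and lost its call, as it did without either W4 library.

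A handful of cells carried most of both transcripts. In the age series 92 of 36208 cells had any Adipoq UMI, and 14 had at least 5, a threshold chosen after the counts were seen. Those 14 cells held 540 of 638 Adipoq UMIs (84.6%) and 6124 of 8412 Car3 UMIs (72.8%). They carried 6 to 142 Adipoq and 53 to 818 Car3 UMIs each, in cells of 14093 to 68628 UMIs. By annotation 10 were CapFb3, 2 CapFb2b and 2 proliferating cells, 5 came from E16.5 and 9 from P0, 7 of them from P0 replicate 2. None came from W4. Below the threshold, 7 cells had 3 or 4 Adipoq UMIs and 71 had 1 or 2. The cell with most Adipoq, a CapFb3 cell of P0 replicate 2, had 142 Adipoq, 775 Car3, 301 Fabp4 and 53 Lpl UMIs.

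**Figure D3:**
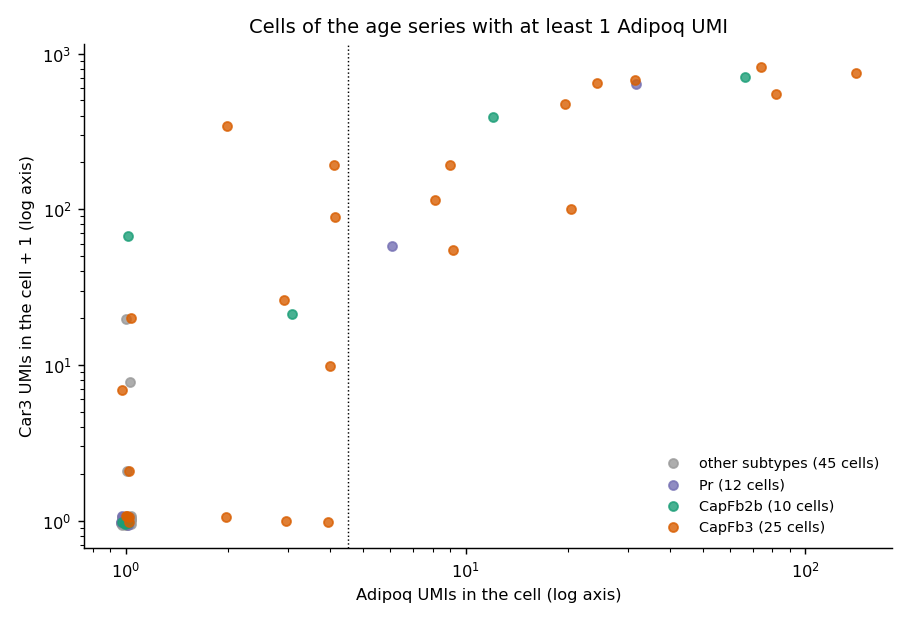
Car3 UMIs + 1 against Adipoq UMIs in each of the 92 cells of the age series with an Adipoq UMI, both on log axes, coloured by annotated subtype (25 CapFb3, 10 CapFb2b, 12 proliferating and 45 cells of other subtypes). The dotted line stands at 5 Adipoq UMIs, and the 14 cells from it on all carried at least 53 Car3 UMIs.

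The 14 cells also carried the other members. Lpl, Fabp4, Fabp5 and Plin2 were counted in 14 of 14, Cebpa in 13, Pparg in 12 and Cd36 in 11. The lipid droplet gene Plin1 was counted in 10, the adipokine gene Retn in 9 and the droplet gene Cidec in 7. Cfd, of the adipocyte marker list, was counted in only 3, and the brown fat gene Ucp1 in none. As a description, summed levels in these cells against all other CapFb3 cells of E16.5 and P0 were 302 against 26.7 CPM for Pparg, 255 against 43.1 for Cebpa, 2814 against 167.9 for Fabp4 and 1564 against 212 for Fabp5. Lpl was 991 against 899 CPM, so it set these cells least apart. The fibroblast genes went the other way, with Dcn at 2846 against 11469 CPM, Col1a1 at 875 against 7789 and Pdgfra at 12.8 against 131.7. The 4 such CapFb3 cells of E16.5 were 2.48% of that subtype (exact 95% interval 0.681% to 6.24%), and the 6 of P0 were 1.38% of 435 cells (0.508% to 2.98%). At W4 there were 0 of 296 CapFb3 cells, which allows a share of up to 1.01% by a limit of 3 counts, and of up to 1.24% by the exact interval. These intervals and limits cover counting error only. Outside these cells the summed CapFb3 level of Car3 was 121 CPM at E16.5, 175.4 at P0 and 1.74 at W4. This was not a level of CapFb3 cells in general, since only 38 of all 435 CapFb3 cells of P0 had a Car3 UMI. Of the Car3 UMIs left at P0, 364 were in a cell with 2 Adipoq UMIs and 178 in a cell with 4, both of P0 replicate 2. The CapFb3 level after the cut thus rests in part on cells just under the threshold, which stayed in the fits below. With the cells of at least 5 Adipoq UMIs left out, the W4 against P0 change in Car3 was -6.72 in CapFb3 (adjusted p = 0.026). In CapFb2b it was -4.06 (adjusted p = 0.00096), and Adipoq had too few counts in both subtypes to be tested. From E16.5 to P0, Car3 then passed as higher in CapFb2b (4.69, SE 0.69, adjusted p = 0.0021), where it had not passed with these cells. The cut took 400 of 410 Car3 UMIs of CapFb2b at E16.5 and 676 of 854 at P0. Of the rest at P0, 62 were in a cell with 1 Adipoq UMI and 20 in a cell with 3. This call thus depends on where the cut fell and is not read as a rise with age. In CapFb3 Car3 did not pass from E16.5 to P0 (0.79, adjusted p = 0.77).

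Plin2 encodes the general droplet coat protein. In the pooled fibroblasts it was 62.1 CPM at E12.5, 55.2 at E13.5, 53 and 54.4 at E16.5, 65.6 and 74.8 at P0, and 85.6 and 95.6 at W4, and the W4 libraries lay above all others. The pooled endothelium went from 43.2 to 92.5 and 120 CPM. From P0 to W4 Plin2 rose in MedFb1a (70.7 and 68.6 to 111 and 170 CPM, log2 change 0.92, SE 0.16, adjusted p = 0.0002), MedFb2a (67.9 and 65.9 to 99 and 120 CPM, 0.71, SE 0.11, adjusted p = 0.00015) and MedFb1b (78 and 92.5 to 130 and 138.8 CPM, 0.62, SE 0.10, adjusted p = 0.00017). No capsular subtype passed at this step, and CapFb3 held 84.7 and 97.7 CPM at P0 and 103.2 and 102 at W4. MedFb2b and EnA also passed, but the call was lost in some of the fits with a library left out: in MedFb2b without P0 replicate 1, P0 replicate 2 or W4 replicate 2, and in EnA without any 1 of the P0 and W4 libraries. From E16.5 to P0 Plin2 rose in CapFb1b (log2 change 0.52), MedFb1b (0.69) and MedFb2a (0.70) and fell in CapFb4 (-0.60). These 4 calls held whichever library was left out, but that in CapFb4 was lost with DESeq2. CapFb1c also passed as higher (0.53), and that call was lost without either E16.5 library, without P0 replicate 2 and with DESeq2.

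In the newborn data the question was whether loss of 1 copy of Tbx1 and Crkl changed these genes. No member passed in any of the HET against WT comparisons. In the pooled fibroblasts edgeR called 0 of 11897 genes (0.00%), with 1007 (8.46%) at an unadjusted p below 0.05, and DESeq2 called 13 (0.109%). In the pooled endothelium edgeR called 1 of 7957 genes (0.0126%), with 3.43% at an unadjusted p below 0.05, and DESeq2 called 1. In the 9 subtypes with enough cells 0 of 42 member tests passed by edgeR and 0 by DESeq2, against 0.0284% of all tests by edgeR and 6.44% of all tests at an unadjusted p below 0.05. CapFb3 was not among the 9, since it held only 27 HET and 39 WT cells, so a genotype difference within CapFb3 was not tested. Outside cells of at least 5 Adipoq UMIs, these few CapFb3 cells held 1036 CPM of Car3 in HET and 236 in WT. Their Adipoq was 123 and 11.5 CPM. These levels are pooled over the libraries of a genotype and rest on few counts. With the left-out cell, HET held 14 Adipoq UMIs in 4 cells, 5 of them in that cell, and WT held 2 UMIs in 2 cells. Car3 had 91 UMIs in 9 HET cells, 15 of them in that cell, and 41 UMIs in 5 WT cells.

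Car3, Adipoq and Cd36 took their highest values in 1 HET library. Car3 in pooled fibroblasts was 15.8, 85.4 and 19.97 CPM in HET and 1.12, 11.5 and 11.7 CPM in WT, without overlap (log2 difference 2.22, SE 0.57, adjusted p = 0.27). Adipoq was 4.15, 12.7 and 5.71 CPM in HET and 0, 2.74 and 1.35 CPM in WT, again without overlap (2.43, SE 0.59, adjusted p = 0.25). Cd36 was 17.4, 47.04 and 25.3 CPM against 20.2, 7.95 and 13.54 (1.16, SE 0.35, adjusted p = 0.34), with HET replicate 1 inside the WT range. That library was HET replicate 2 for all 3 genes, and without it the log2 differences were 0.92 for Car3, 1.70 for Adipoq and 0.60 for Cd36. With the cells of at least 5 Adipoq UMIs left out, the differences were 2.76 for Car3, 3.20 for Adipoq and 1.17 for Cd36. None of these passed (edgeR, adjusted p = 0.28, 0.20 and 0.35). That cut took 1 WT cell, with 10 of 24 Adipoq UMIs and 41 Car3 UMIs. It took 1 HET cell, with 5 of 67 Adipoq UMIs and 15 Car3 UMIs. The cut was made on Adipoq itself and HET cells were shallower, so the larger values do not bear on a genotype difference. Without the filter on low counts Car3, Cd36 and Adipoq passed (adjusted p = 1.6e-14, 0.0033 and 0.00021), and Car3 passed with the replicate number as a block (adjusted p = 0.00049).

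Some of the same genes took higher values in HET epithelial cells. In wild-type bulk mTEC (medullary TEC) of P0, Adipoq lay between 6.17 and 12.3 CPM and Car3 between 19.96 and 162 CPM in the 6 libraries, so that both were counted in epithelium there too, and in bulk cTEC (cortical TEC) of P0 both were at 0 in every library. In the newborn single-cell data Car3 in TEC was 65.1, 142 and 18.2 CPM in HET and 1.83, 2.32 and 11.4 in WT, and Fabp4 in TEC was 388, 1018 and 449 CPM in HET and 364, 166 and 368 in WT. In pooled fibroblasts Fabp4 was 468, 1012 and 594 CPM in HET and 470, 253 and 483 in WT (0.74, SE 0.31, adjusted p = 0.55, and 0.32 without HET replicate 2). The highest and the lowest library were the same as in TEC. Several lists of markers of other cells were also highest in the fibroblasts of HET replicate 2. The summed TEC markers were 227, 447 and 313 CPM in HET against 181.9, 222 and 165.2 in WT, red cell markers 35.7, 247 and 19.2 against 6.36, 44.9 and 36.8, and endothelial markers 26.5, 78.5 and 59.9 against 57.6, 24.1 and 33.4. HET replicate 1 lay inside the WT range for red cell and endothelial markers, and HET replicate 3 for red cell markers. Hematopoietic markers (36.997 CPM) and mesothelial markers (8.19 CPM) were highest in HET replicate 2 as well. Other lists were not: macrophage (21.6 CPM) and lymphatic (12.4 CPM) markers were highest in HET replicate 1, skeletal muscle markers (33.01 CPM) in HET replicate 3 and mural markers (593 CPM) in WT replicate 2. The fibroblast list itself was lower in every HET library (12876, 13553 and 12064 CPM) than in every WT library (14068, 16098 and 18854 CPM). The adipocyte list of 4 genes, which holds Adipoq, summed to 4.15, 16.6 and 6.93 CPM in HET against 0, 3.84 and 1.64 in WT. Their part in the differences was not tested. Adipoq UMIs were found in 50 of 2563 HET and 13 of 3243 WT fibroblasts, in 20 of 800 and 5 of 865 endothelial cells, and in 133 of 6937 and 32 of 7043 other cells.

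Lpl, Pparg, Cebpa and Plin2 overlapped between the genotypes in pooled fibroblasts. Lpl was 866, 1031 and 504 CPM in HET and 745, 871 and 956 in WT (-0.14, SE 0.28, adjusted p = 0.89). Pparg was 9.95, 15.1 and 7.74 against 11.6, 11.2 and 11.0 CPM (-0.04, SE 0.29, adjusted p = 0.98), Cebpa 14.1, 32.2 and 12.6 against 20.2, 13.4 and 20.9 (0.14, SE 0.33, adjusted p = 0.90), and Plin2 93.7, 89.6 and 51.4 against 74.8, 70.7 and 87.2 (-0.05, SE 0.24, adjusted p = 0.96). In endothelium Cd36 was 1640, 1350 and 908 CPM in HET and 1094, 812 and 1111 in WT (0.35), and Fabp4 17099, 13009 and 7471 against 9556, 9818 and 14274 (0.14), with overlap in both. Fabp5 in fibroblasts was 530, 952 and 732 CPM against 415, 476 and 597 (0.53, SE 0.27, adjusted p = 0.61, and 0.26 without HET replicate 2). The genotype effect in endothelium minus that in fibroblasts passed for no member, where 0.144% of 11840 genes passed and 6.71% had an unadjusted p below 0.05. The values were -0.95 for Cd36 (SE 0.26, adjusted p = 0.19) and -0.49 for Fabp5 (SE 0.15, adjusted p = 0.35).

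**Figure D4:**
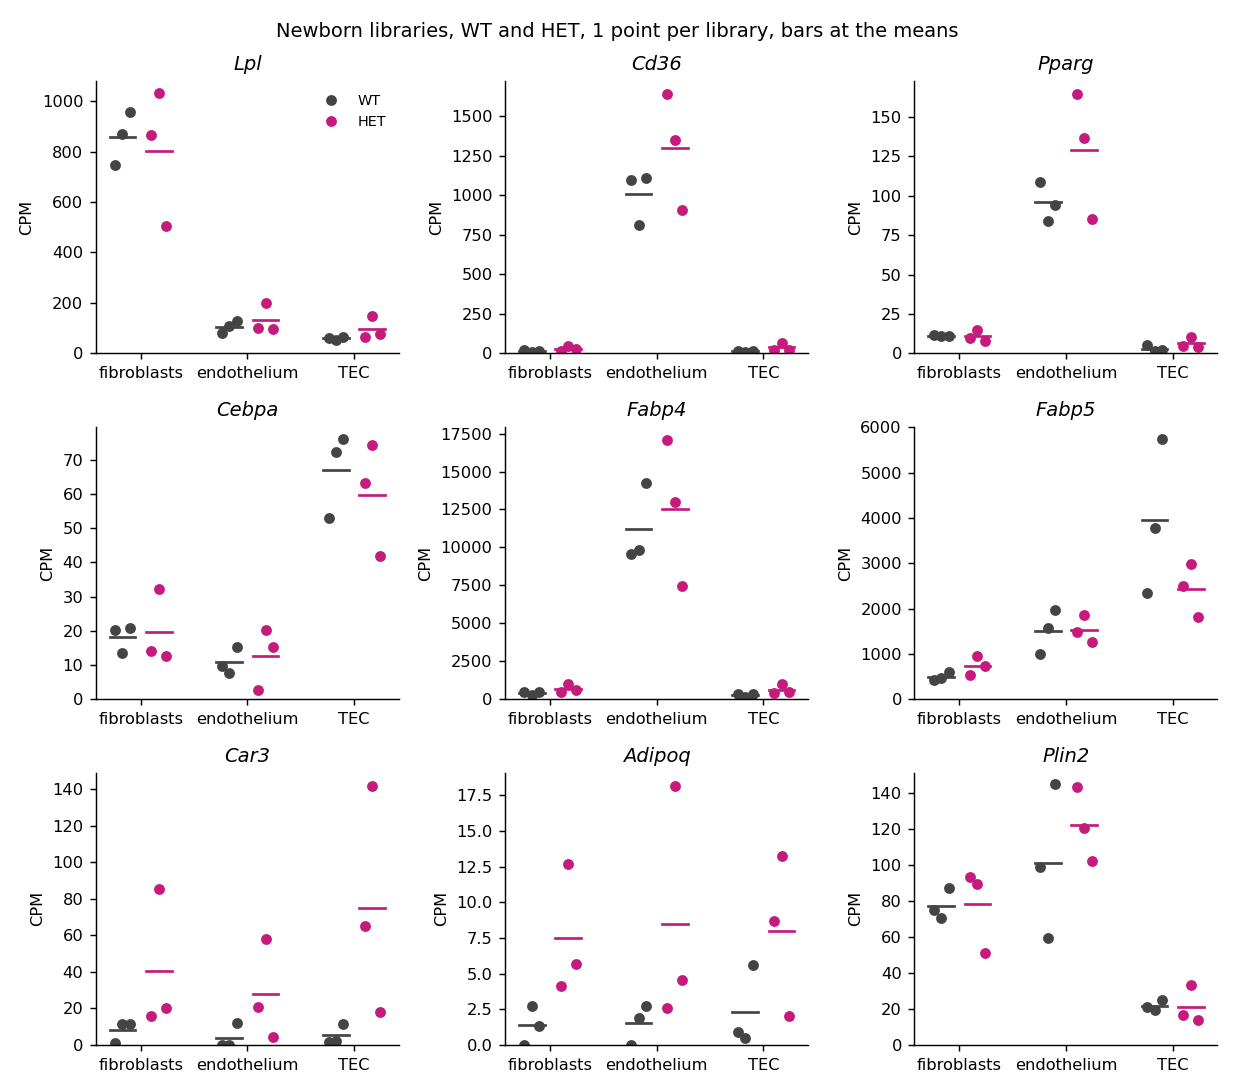
Level of each of the 9 genes in CPM in pooled fibroblasts, pooled endothelium and TEC of newborn WT and HET mice. Each point is 1 library and bars stand at the means of 3 libraries. Car3 and Adipoq were highest in HET replicate 2 in all 3 compartments, and the genotypes overlapped for Lpl in fibroblasts.

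The bulk populations gave a second view of the same cell types, with 6 libraries for each population and age except gp38+CD26+ at W4, which held 5 once 1 library with few counts was left out. In bulk samples fewer cells of a type and less RNA per cell cannot be told apart. CD31+ endothelium was set against the other 3 populations, taken as their mean. In this comparison 14 member tests passed, where 30.9% of all tests did. Cd36 in CD31+ cells ran from 4060 through a median of 6338 to 8520 CPM at P0 and from 7864 through 8292 to 9202 at W4. In the gp38+ fibroblast populations no library was above 18.8 CPM. The log2 differences were 9.59 at P0 (SE 0.80) and 8.62 at W4 (SE 0.81).

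Fabp4, Pparg and Fabp5 were also higher in CD31+ cells than in the mean of the others, though not always in every library. Fabp4 in CD31+ cells ran from 630 through 1405 to 2958 CPM at P0 and from 671 through 732 to 1093 at W4, above every library of the other populations, and differed from their mean by 6.69 (SE 0.55) and 7.18 (SE 0.59). Pparg ran from 89.4 through 172.4 to 203 CPM at P0 and from 48.4 through 110 to 152 at W4, with differences of 3.32 (SE 0.53) and 4.21 (SE 0.55). At W4 Pparg overlapped with Ly51+gp38- cells, which reached 68.0 CPM. Fabp5 overlapped with them at P0, where the lowest CD31+ library was at 17.0 CPM and the highest Ly51+gp38- library at 23.1 CPM. Fabp5 differed by 2.39 (SE 0.37) and 2.14 (SE 0.38), and Plin2 by 0.50 at both ages (adjusted p = 0.0067 and 0.0086). Lpl was the reverse, lower in CD31+ cells by -2.58 (SE 0.26) at P0 and -2.20 (SE 0.25) at W4. These 12 differences held whichever library was left out. The other 2 calls were for Car3 and Adipoq at P0, of which that for Car3 did not hold. Adipoq was listed at 0 in every gp38+ library of P0, so the size of its difference depends on the prior count of the fit. CD31+ and Ly51+gp38- libraries of P0 overlapped for both genes. The Adipoq median was 4.84 CPM in CD31+ and 14.8 CPM in Ly51+gp38- cells, although the mean was higher in CD31+ cells. The Adipoq call thus does not place CD31+ above Ly51+gp38- cells.

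Lpl was highest in the gp38+ fibroblasts. In gp38+CD26+ cells it ran from 569 through 737 to 871 CPM at P0 and from 347 through 475 to 655 at W4, and in gp38+CD26- cells from 266 through 403 to 490 and from 452 through 511 to 617. At P0 the capsular population lay above the medullary one in every library, by 0.93 on the log2 scale (SE 0.27, adjusted p = 0.041), where 3.21% of all genes passed. The call was lost without any 1 of 10 of the 12 libraries of these groups (all but gp38+CD26+ replicate 5 and gp38+CD26- replicate 2), with values between 0.83 and 1.01. At W4 the populations overlapped, with a difference of 0.00, where 5.81% of all genes passed. The test of whether the age change differed between these populations did not pass for Lpl (-0.93, adjusted p = 0.22). No member passed this test in either pairing, where 4.71% of all tests did. At an unadjusted p below 0.05 that share was 16.51%, and DESeq2 called 3 member tests.

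From P0 to W4, 3 of 36 bulk member tests passed, where 11.2% of all tests did. All 3 were lower in gp38+CD26+ cells, the population of the capsule. Pparg ran from 9.86 through 13.4 to 33 CPM at P0, and at W4 it was at a median of 0 and at most 3.48 CPM (log2 change -3.85, SE 0.88, adjusted p = 0.0024, and -5.38 without gp38+CD26+ W4 replicate 5). Fabp4 ran from 6.08 through 11.5 to 15.8 CPM at P0 and from 0 through 0.325 to 3.14 at W4 (-3.14, SE 0.86, adjusted p = 0.013, and -3.94 without gp38+CD26+ W4 replicate 4). Fabp5 ran from 2.86 through 4.8 to 12.46 CPM at P0 and from 0.683 through 1.46 to 2.42 at W4 (-1.98, SE 0.55, adjusted p = 0.014), and this call was lost without gp38+CD26+ W4 replicate 5 (-1.79, adjusted p = 0.053). The ages did not overlap for any of the 3 genes. In CD31+ endothelium Fabp5 ran from 17.0 through 36.2 to 93.4 CPM at P0 and from 10.9 through 13.8 to 23.9 at W4, which overlap, with a log2 change of -1.42 (SE 0.50, adjusted p = 0.061). Fabp4 in CD31+ cells did not pass either (mean 1581 CPM at P0 and 776 at W4, log2 change -0.91, SE 0.70, adjusted p = 0.50). Both values were below 0, whereas those of Fabp4 and Fabp5 in EnC and EnVL of the age series were above 0. Cd36 in Ly51+gp38- cells ran from 2.7 through 32.9 to 60 CPM at P0 and from 33.1 through 157.9 to 351 at W4 (2.79, SE 0.97, adjusted p = 0.056). Lpl did not pass in CD31+ (0.63, adjusted p = 0.12), Ly51+gp38- (0.55, adjusted p = 0.19), gp38+CD26- (0.56, adjusted p = 0.17) or gp38+CD26+ cells (-0.37, adjusted p = 0.48). Its value in gp38+CD26+ cells was below 0 (mean 732 CPM at P0 and 503 at W4), whereas every capsular subtype of the age series was higher at W4.

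Car3 and Adipoq varied widely among the bulk libraries. Car3 ran from 0 through 1437 to 2330 CPM in Ly51+gp38- cells at P0 and from 0 through 174 to 540 at W4, and in CD31+ cells from 0 through 243 to 1532 and from 0 through 6.07 to 1118. In gp38+CD26+ cells it ran from 0 through 8.43 to 23.6 CPM at P0 and from 0 through 0 to 8.67 at W4, and in gp38+CD26- cells from 0 through 2.94 to 27.1 and from 0 through 0 to 355. The highest Car3 levels of P0 were thus in the Ly51+gp38- and CD31+ sorts and not in the fibroblast sorts. Adipoq in Ly51+gp38- cells at P0 was 27.5, 11.5, 59.7, 0, 18.1 and 2.05 CPM. The bulk labels carry 1 of 2 prefixes, TXCK or DFCK, whose meaning is not given, with 3 libraries of each in Ly51+gp38- and in CD31+ cells at each age. In Ly51+gp38- cells at P0 the means were 32.9 CPM (SD 24.5) with TXCK and 6.71 CPM (SD 9.91) with DFCK for Adipoq, and 1734 CPM (SD 658) and 718 CPM (SD 1160) for Car3. At W4 Car3 was 377 CPM (SD 642) and 5.02 CPM (SD 8.51) in CD31+ cells, whereas at P0 it was lower with TXCK there (356 against 673 CPM). High and zero libraries thus stood side by side in 1 group, and in the gp38+ populations all libraries but 1 were at 0 for Adipoq. Neither gene passed the age test in a bulk population.

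**Figure D5:**
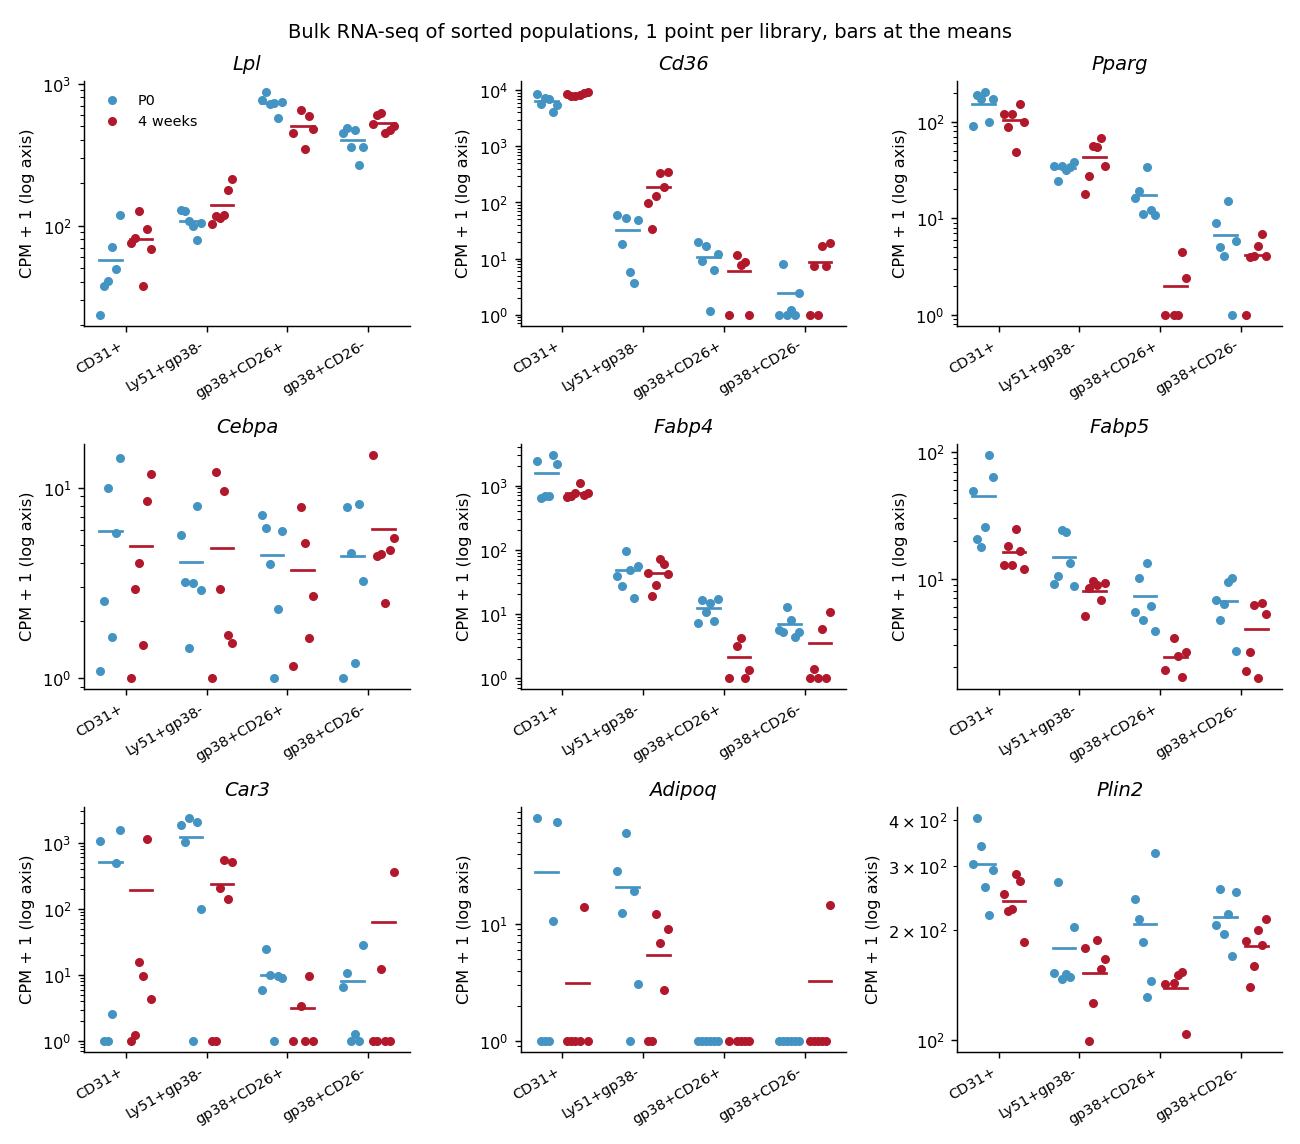
Level of each of the 9 genes in the 4 bulk-sorted populations at P0 and W4, as CPM + 1 on a log axis, with 1 point per library (6 per group, 5 for gp38+CD26+ at W4). By their means Cd36, Fabp4 and Pparg were highest in CD31+ cells and Lpl was highest in the gp38+ populations. Car3 ran from 0 to 2330 CPM within Ly51+gp38- cells at P0.

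Other genes of the pathway were followed through lists. Over all genes 29.1% of tests passed between W4 and P0. In the fatty acid uptake list of 20 genes, 52 of 237 tests over the 14 subtypes were higher at W4 than at P0 and 37 lower, with a median log2 change of 0.04 against -0.01 over all tests. In the list of 16 adipogenic regulators 45 of 196 were higher and 42 lower (median 0.00). The lipid droplet and lipolysis list had 32 higher and 11 lower of 116 (median 0.21), and lipid synthesis and oxidation 28 and 17 of 116 (median 0.14). The adipocyte marker list had 2 higher and 2 lower of 19 tests in the 4 of its 8 genes that passed the filter. Genes known to hold back fat cell formation had 8 higher and 31 lower of 66 (median -0.71), the furthest median from that of all genes.

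Among them Dlk1, the preadipocyte inhibitor Pref-1, had 1946 and 3740 UMIs in MedFb2b at P0 and 0 and 0 at W4. It was already lower at P0 than at E16.5 in MedFb2a (log2 change -1.50, SE 0.15). Sfrp1, also on this list, encodes a secreted Wnt inhibitor, and since Wnt signalling itself holds back fat cell formation its known role runs against the list's name. It rose in CapFb1b from 174.96 and 155.1 to 650 and 815 CPM (log2 change 2.14, SE 0.11). The lipoprotein receptor gene Lrp1 rose in CapFb3 from 269 and 217 to 993 and 1020 CPM (2.17, SE 0.15), and Scd1, a desaturase of fatty acid synthesis, from 8.3 and 6.24 to 79 and 57.6 CPM in the same cells (3.29, SE 0.29). Nr1h3, the oxysterol receptor LXR-alpha, rose in CapFb2a from 4.77 and 6.28 to 41.6 and 40.1 CPM (2.92, SE 0.33), as did the lipolysis inhibitor gene G0s2, from 17.8 and 27.8 to 141 and 153 CPM (2.75, SE 0.22). The early adipogenic factor Klf5 fell in MedFb1a from 40.3 and 64.6 to 5.82 and 0.893 CPM (-4.13, SE 0.43, and from -5.92 without W4 replicate 1 to -3.32 without W4 replicate 2), and Cebpd fell in EnA from 544 and 540 to 149.2 and 211 CPM (-1.70, SE 0.22). These changes held whichever library was left out.

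From E16.5 to P0, where 12.6% of all tests passed, the uptake list had 35 higher and 14 lower of its tests (median 0.18 against 0.01 over all tests), the regulators 21 and 15, the inhibitors 8 and 13, and the droplet and lipolysis list 9 and 15. In EnVL Klf4, of the regulators, rose from 166.8 and 207 to 641 and 796 CPM (log2 change 1.92), and Klf2, of the list of genes that hold back fat cell formation, rose by 1.45 (SE 0.11), as did the hormone-sensitive lipase gene Lipe in EnC, from 14.7 and 11.2 to 42.4 and 47.2 CPM (1.65). In the bulk age comparison, where 11.2% of all tests passed, the uptake list had 5 higher and 5 lower of 80, the regulators 7 and 6 of 64, the inhibitors 3 and 3 of 24, the droplet list 4 and 0 of 40 and the synthesis list 1 and 1 of 36. The adipocyte list had none of 24. With HET against WT no list had a call by edgeR in any comparison.

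The genes with the most similar pattern over the 19 subtypes of the age series were found by Pearson's r of log2(CPM + 10), as a description in which subtypes share libraries. For Lpl these were Agtr2 (0.94), Svil (0.94) and Cyp1b1 (0.93), and for Cebpa they included Brinp3 (0.90) and Bmper (0.86). For Cd36 they were Arhgap25, Palmd and Ushbp1, each at 0.99, and for Fabp5 Cd151 (0.941), Pigq (0.929) and Hspa2 (0.923). Members were themselves alike. Those nearest to Fabp4 were Cd36 (0.962), Dysf (0.959) and Abcg2 (0.957), and those nearest to Pparg were Fabp4 (0.90), Prrg2 (0.88) and Xiap (0.88). Car3 and Adipoq were nearest to each other (0.962), followed for both by Hp (0.872 and 0.894) and Dio3 (0.874 and 0.822). Plin2 had no gene above 0.755 (Fam102a).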

How the data were processed

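The authors deposited single-cell UMI counts with subtype annotation and bulk read counts per gene as raw counts. The submitters' processing notes name Cell Ranger 3.1.0, STAR 2.5.3a, HTSeq, mm10 and GRCh38. The authors state filters on genes per cell, mitochondrial share and doublets. The deposited cells held at least 999 genes in the age series and at least 876 in the newborn data, so that both held cells below the minimum stated. The members and gene lists were chosen with earlier results of these data known. Counts were summed per library and subtype (at least 5 cells for a level and 20 for a test, with smaller libraries left out), and tested with edgeR 4.0.16 (quasi-likelihood, TMM, filterByExpr, Benjamini-Hochberg over all genes, adjusted p below 0.05) in R 4.3.3, on all ages or both genotypes. The endothelium against fibroblast age tests, the omission of cells with at least 5 Adipoq UMIs and each bulk library left out in turn were added after seeing the data. Alternatives were DESeq2 1.42.0, its size factors, no filter, 50 cells, a replicate block, the bulk label prefix as a term, and each library left out. Code was tested on simulated data. Bulk entries naming no gene (7.81% to 29.4% of counts) were left out, as was 1 of 84 libraries with under 1e+06 counts, and 48 belonged to the 4 populations. The 47 of these used held 6793831 to 15852166 counts. List genes were named where they passed, at most 2 per list and direction, by size of change, and here among those that held whichever library was left out.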

Additional observations from a re-analysis of the deposited data

Results flagged for a closer look

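In 11 of 69 groups of bulk values (a gene in a population and age) a library lay further from the others than Dixon's 95% limit allows. For normally distributed values chance flags about 1 group in 20, but CPM values with many zeros are not so distributed. The share flagged by chance here is therefore not known. A group at 0 in all but 1 library is always flagged, as for Adipoq in CD31+ and gp38+CD26- cells at W4. At W4, CD31+ replicate 5 had 12.9 CPM of Adipoq against 0 in the others and 1118 CPM of Car3 against 0 to 14.8, and gp38+CD26- replicate 6 had 13.497 CPM of Adipoq against 0 and 355 CPM of Car3 against 0 to 11.5. Car3 was also high in gp38+CD26+ W4 replicate 5 (8.67 CPM against 0 to 2.35) and gp38+CD26- P0 replicate 6 (27.1 CPM against 0 to 9.82). Cd36 was 6.98 CPM in gp38+CD26- P0 replicate 2 against 0 to 1.45, and Cebpa was 13.8 CPM in gp38+CD26- W4 replicate 1 against 1.47 to 4.41. Fabp4 was 1093 CPM in CD31+ W4 replicate 4 against 671 to 754, and Pparg was 33.04 CPM in gp38+CD26+ P0 replicate 4 against 9.86 to 18.3. Plin2 was low in gp38+CD26+ W4 replicate 6, at 102.4 CPM against 141 to 152.

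The age change in endothelium differed from that in fibroblasts for 4 members between P0 and W4 and for 2 between E16.5 and P0. The log2 differences from P0 to W4 were 2.36 for Fabp5, 5.46 for Car3, 1.31 for Pparg and 7.48 for Adipoq, the last from endothelial levels of 0 to 0.695 CPM, so that its size depends on the prior count of the fit. From E16.5 to P0 they were 0.60 for Fabp4 and -0.72 for Pparg.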

How the results depend on the processing

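The age comparisons rested on 2 libraries per age and the bulk libraries on few cells, and low members (Cebpa, Adipoq and fibroblast Cd36) had few counts. Of 121 member calls, 94 were kept with DESeq2, 118 with its size factors and all but 2 with no filter on low counts. Other alternatives kept 97 of 97 (replicate block), 85 of 86 (at least 50 cells), 18 of 18 (label prefix as a term) and 17 of 18 (every bulk library kept), and 1487 of 1603 calls were kept with a library left out, none of them turning in direction. Without the cells of at least 5 Adipoq UMIs, an alternative chosen after the counts were seen, the 2 W4 against P0 calls for Adipoq and its endothelium against fibroblast call could not be tested, and most other calls were in subtypes without such cells. The other scaling moved the median of all genes by at most 0.060 on the log2 scale. The cause of a lost call was not tested.

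Member calls for HET against WT, 0 in each comparison, became 3 in fibroblasts, 1 in endothelium, 6 in single subtypes and 3 for the difference between compartments with no filter. With a replicate block they became 1 in fibroblasts and 2 in single subtypes. The replicate numbers did not pair the libraries, since same-numbered libraries had correlations of 0.144, 0.039 and -0.435 in fibroblasts and 0.125, -0.012 and -0.325 in endothelium. The block moved the calls from 57 to 60 for W4 against P0 and from 40 to 49 for P0 against E16.5. The endothelium against fibroblast calls from E16.5 to P0 (2) became 1 with DESeq2 size factors and 0 with DESeq2. With DESeq2 the bulk age calls (3) became 5, the gp38+CD26+ against gp38+CD26- calls (1) became 2 and the differences of age changes (0) became 3. The gp38+CD26+ against gp38+CD26- call became 0 with no filter and 0 with every library kept.

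With a library left out, calls ran from 44 to 57 for W4 against P0, 32 to 46 for P0 against E16.5, 82 to 93 for all ages (89, where 54.8% of all tests passed), 2 to 6 and 0 to 2 for the endothelium against fibroblast differences, 0 to 6 for HET single subtypes, 0 to 3 for the HET difference, 2 to 5 for bulk age, 0 to 2 for gp38+CD26+ against gp38+CD26-, 13 to 16 for CD31+ and 0 to 1 for the difference of age changes. HET differences in fibroblasts then ran from -0.41 to 0.11 for Lpl, -0.47 to 0.20 for Pparg, -0.56 to 0.41 for Cebpa and -0.22 to 0.20 for Plin2. In endothelium they ran from -0.15 to 0.55 for Lpl, -0.16 to 0.41 for Fabp4, -0.25 to 0.29 for Fabp5 and -0.084 to 0.64 for Plin2. The difference for Fabp5 in endothelium was 0.00, and -0.0339 with no filter.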
